A study of Mus musculus with 9 samples.

Results

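Keratins, the intermediate filament proteins of epithelial cells, were described in mouse liver tumours of 3 treatment groups. They were taken as every row of the deposited expression table whose gene name is Krt followed by a number and at most 1 letter. That gave 42 genes of 32761, of which 21 are type I and 21 are type II keratins. The mice carried in-situ tumours of Hepa1-6-luc, a luciferase-marked mouse hepatoma cell line, and tumours of 3 mice in each group were harvested on day 14 for RNA sequencing. Groups are named as labelled. Control is described no further in the labels. Lenvatinib+anti-PD1 mice received free lenvatinib, a kinase inhibitor of VEGF and FGF receptors, with an antibody against the T cell receptor PD1. Co+Len@OVA+anti-PD1 mice received a drug-loaded nanocluster with the same antibody. The nanocluster (2 mg/mL) or the free drug was injected into the tail vein every 3 days and the antibody at 50 µg every 4 days. The labels do not give the strain, age or sex of the mice or say what Co stands for. All groups share the 1 tumour line, and no sequenced group received the drug, the carrier or the antibody alone, so their parts cannot be told apart.

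Keratin filaments are built from pairs of 1 type I and 1 type II protein, so an epithelial cell makes at least 1 of each. Hepatocytes make Krt8 and Krt18 as their only main pair, bile duct cells add Krt7 and Krt19, Krt23 is known from injured liver, and Krt20 from gut and urothelium. Stratified epithelia such as skin, mouth, oesophagus and cornea instead use Krt5 with Krt14 or Krt15 in basal cells, Krt4 with Krt13 in mucosa, Krt12 in the corneal surface, and Krt6, Krt16 and Krt17 in activated or wounded epithelium. In liver pathology, Krt7 and Krt19 mark biliary or progenitor-like features of a tumour.

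In the RefSeq gene order, the type II keratins of the table lie together on chromosome 15 and 20 of the 21 type I keratins on chromosome 11. Krt18 is the 1 type I gene on chromosome 15, next to Krt8. The promoters of 5 keratins on which the results turn are shown: the hepatocyte pair, Krt7 and Krt20, which had the largest called differences from Control in the treated groups, and Krt12, which reached the highest level of the stratified keratins. Each is the 250 bases before the RefSeq start in GRCm38.p6, written 5′ to 3′ on the gene's strand. Krt8 lies at chr15:102004343-102004592 on the minus strand, Krt18 at chr15:102027966-102028215 on the plus strand, Krt7 at chr15:101412153-101412402 on the plus strand, Krt20 at chr11:99438154-99438403 on the minus strand and Krt12 at chr11:99422260-99422509 on the minus strand. Capitals mark matches, on either strand, to the TATA box TATAAA, the GC box GGGCGG, the AP-2 motif GCCNNNGGC or the AP-1 motif TGANTCA.
Krt8: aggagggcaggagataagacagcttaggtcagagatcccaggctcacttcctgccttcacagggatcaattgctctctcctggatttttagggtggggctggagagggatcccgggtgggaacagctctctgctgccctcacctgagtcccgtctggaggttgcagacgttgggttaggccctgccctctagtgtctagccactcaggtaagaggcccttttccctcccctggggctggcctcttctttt
Krt18: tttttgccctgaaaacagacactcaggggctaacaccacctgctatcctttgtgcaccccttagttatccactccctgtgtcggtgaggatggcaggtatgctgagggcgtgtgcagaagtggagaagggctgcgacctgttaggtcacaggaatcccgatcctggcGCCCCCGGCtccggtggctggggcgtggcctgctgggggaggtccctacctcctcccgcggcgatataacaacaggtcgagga
Krt7: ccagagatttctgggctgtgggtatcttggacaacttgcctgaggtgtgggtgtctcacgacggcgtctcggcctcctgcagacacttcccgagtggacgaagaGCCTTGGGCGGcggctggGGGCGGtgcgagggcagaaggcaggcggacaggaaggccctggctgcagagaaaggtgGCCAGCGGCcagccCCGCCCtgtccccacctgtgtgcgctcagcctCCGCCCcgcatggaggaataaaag
Krt20: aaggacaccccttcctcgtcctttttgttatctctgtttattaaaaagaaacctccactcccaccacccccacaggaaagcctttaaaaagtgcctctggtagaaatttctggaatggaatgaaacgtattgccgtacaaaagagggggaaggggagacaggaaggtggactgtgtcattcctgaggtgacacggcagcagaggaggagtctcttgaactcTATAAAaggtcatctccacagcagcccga
Krt12: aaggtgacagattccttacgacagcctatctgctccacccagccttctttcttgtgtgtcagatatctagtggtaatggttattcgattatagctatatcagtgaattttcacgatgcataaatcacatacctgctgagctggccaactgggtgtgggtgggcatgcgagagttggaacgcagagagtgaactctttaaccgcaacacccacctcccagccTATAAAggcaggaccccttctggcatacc
The neighbouring genes Krt20 and Krt12 both hold a TATA box that begins 29 bases before the start. Krt18 holds an AP-2 motif that begins 83 bases before its start. Krt7 holds 4 GC boxes and 2 AP-2 motifs, the first of which overlaps a GC box, and Krt8 holds none of the 4 motifs. Of the 32851 mouse promoters in the table, 12.4% hold the TATA box, 32.7% the GC box, 13.7% the AP-2 motif and 6.75% the AP-1 motif in a window of this length. Of the 13 tested keratins with a promoter in the table, 5 hold the TATA box, 1 the GC box, 2 the AP-2 motif and 1 the AP-1 motif. These matches describe letters and show no binding.

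Values are FPKM, fragments scaled by the mapped total and by transcript length, so levels may be compared between genes. Libraries summed to 331611 to 372794 FPKM, and their sequencing depth is not known from the table. The hepatoma marker Afp was at 233 to 439 FPKM over the libraries and the liver transcription factor Hnf4a at 25.2 to 29.2 FPKM. Of the other hepatoma markers listed, Cd24a was at 76.975 to 132.578 FPKM. Gpc3 was at 0.525 to 6.62 FPKM, H19 at 1.20 to 88.8, Igf2 at 1.06e-05 to 2.15 and Dlk1 at 0 to 1.12. Hepatoma markers were therefore not all high in every library. The libraries numbered 3 were intermediate more often than the others. Where libraries 1 and 2 of a group were more than 4-fold apart, library 3 took an intermediate value for 93.6% of 657 such genes (Control), 97.2% of 494 (Lenvatinib+anti-PD1) or 97.5% of 689 (Co+Len@OVA+anti-PD1). With a library numbered 1 or 2 in that role, the share was 7.49% to 72.7% in 6 such counts. Keratins were intermediate in library 3 in 8 of 11, 4 of 5 and 1 of 1 cases, and the Control exceptions were Krt12, Krt5 and Krt17. Whether library 3 was an independent tumour was not tested, so the keratin calls are also given from libraries 1 and 2 alone.

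Of the 42 keratins, 21 had a mean of at least 0.5 FPKM over the 9 libraries and were tested, 13 of type I and 8 of type II. A change was called at a limma adjusted p under 0.05, over the 15353 genes tested, and "rose" and "fell" are used only for such calls. Differences are on the log2(FPKM + 0.5) scale with their SE. The comparisons with Control share the Control libraries. In bulk tumour RNA, fewer cells of a type and less RNA per cell cannot be told apart.

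Keratin RNA in these tumours was mostly that of simple epithelium. Krt8 and Krt18 together made up 49.3% to 70.0% of keratin FPKM in a library. All keratins summed to 1938, 1195 and 1673 FPKM in Control, 1302, 1556 and 1337 in Lenvatinib+anti-PD1 and 1231, 1336 and 1279 in Co+Len@OVA+anti-PD1, or 0.36% to 0.52% of a library's FPKM. The 6 simple keratins summed to 1416 ± 248 FPKM (SD, n = 3) in Control, 1060 ± 44.3 in Lenvatinib+anti-PD1 and 1021 ± 52.6 in Co+Len@OVA+anti-PD1. The other 36 keratins summed to 257, 6.30 and 296 FPKM in the Control libraries, 225, 546 and 243 in Lenvatinib+anti-PD1 and 265, 265 and 253 in Co+Len@OVA+anti-PD1. The simple sum differed 1.74-fold between its lowest and highest library. The sum of the others differed 86.7-fold, and 2.42-fold without Control library 2.

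The first comparison asks how tumours given the nanocluster with the antibody differed from Control. In Co+Len@OVA+anti-PD1 tumours 5 simple keratins fell, Krt7, Krt19, Krt23, Krt20 and Krt8, and no keratin rose. The median difference of the 6 simple keratins was -0.83, against 0.13 over all genes tested. These 5 are 5 of 21 tested keratins, where 33.6% of all tested genes were called and 12.7% were called lower. With libraries 1 and 2 alone, limma called 0 of the 21, where 0.521% of all genes were called. In that fit 4 keratins had an unadjusted limma p under 0.05, as did 3382 of all 15353 genes tested.

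In Lenvatinib+anti-PD1 tumours against Control, Krt20, Krt8, Krt19 and Krt7 fell and Krt39, a hair-type keratin, rose. The median difference of the simple keratins was -0.55, against 0.05 over all genes tested. The 5 calls of 21 stand beside 23.7% of all tested genes called, with 13.8% higher and 9.87% lower. Krt20 was the 1 keratin called with libraries 1 and 2 alone, where 0.345% of all genes were called.

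Between the treatments, Krt20 rose and Krt23, Krt7 and Krt39 fell in Co+Len@OVA+anti-PD1 relative to Lenvatinib+anti-PD1. The 4 calls of 21 stand beside 29.4% of all tested genes called, with 17.3% higher and 12.0% lower. With libraries 1 and 2 alone, limma called 0 keratins, where 2.38% of all genes were called. In that fit 4 keratins had an unadjusted limma p under 0.05, as did 2864 of all 15353 genes tested.

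**Figure D1:**
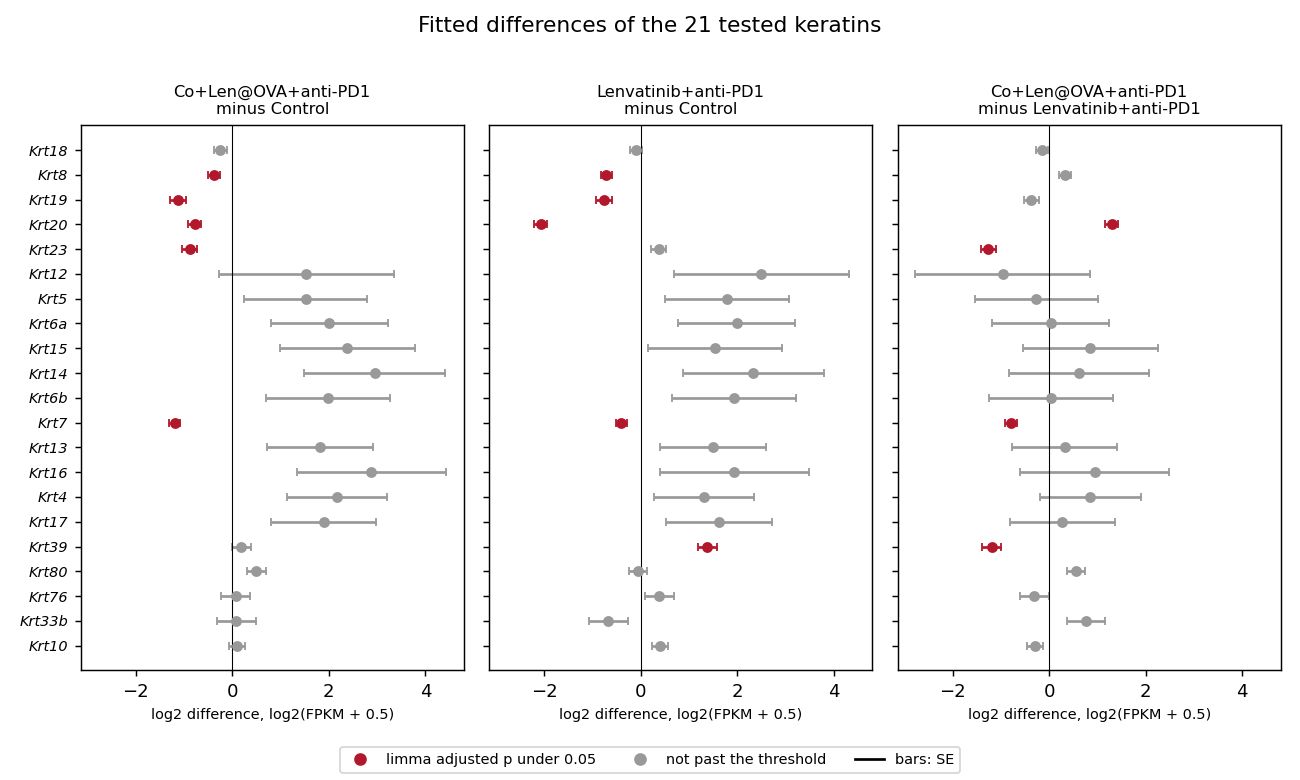
Fitted log2 differences (horizontal axis, log2(FPKM + 0.5)) of the 21 tested keratins, ordered by mean level, in the 3 comparisons, with bars for the SE and red points for limma adjusted p under 0.05. The called keratins have short bars, and the keratins of stratified epithelia have SEs of up to 1.81.

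Krt18, the type I partner in hepatocytes and the most abundant keratin, was measured at 737, 523 and 613 FPKM in Control, 592, 549 and 599 in Lenvatinib+anti-PD1 and 472, 575 and 525 in Co+Len@OVA+anti-PD1. The 3 groups overlapped, and Control library 1 was the highest. Krt18 did not pass the test in any comparison, with differences of -0.24 ± 0.13 (adjusted p = 0.170) for Co+Len@OVA+anti-PD1 and -0.09 ± 0.13 (adjusted p = 0.632) for Lenvatinib+anti-PD1 against Control. Without Control library 2 the first of these was -0.36 (limma adjusted p = 0.0401).

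Krt8, its type II partner, stood at 443, 313 and 364 FPKM in Control, 224, 218 and 236 in Lenvatinib+anti-PD1 and 260, 304 and 285 in Co+Len@OVA+anti-PD1. All 3 Control libraries lay above all treated libraries, and the 2 treated groups did not overlap either. Krt8 fell by 0.71 ± 0.12 on the log2 scale in Lenvatinib+anti-PD1 (adjusted p = 0.00563, 0.190 with libraries 1 and 2 alone). In Co+Len@OVA+anti-PD1 it fell by 0.39 ± 0.12 (adjusted p = 0.0441, 0.295 with libraries 1 and 2 alone), a call that was lost without any 1 library except Control library 2, with adjusted p from 0.0543 to 0.121. The difference between the treatments was 0.32 ± 0.12 (adjusted p = 0.0802), which passed without Control library 1 (0.0170) or Control library 2 (0.0377).

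The ratio of Krt18 to Krt8 FPKM within a library, which no library scaling can alter, separated the groups. It was 1.66, 1.67 and 1.69 in Control, 2.64, 2.52 and 2.54 in Lenvatinib+anti-PD1 and 1.81, 1.89 and 1.84 in Co+Len@OVA+anti-PD1. No library of one group fell within the range of another, and the means were 1.67 ± 0.01, 2.56 ± 0.07 and 1.85 ± 0.04 (SD, n = 3). With 3 libraries against 3, an exact permutation test cannot give a two-sided p below 0.1. The ratio of all simple type I to simple type II keratins was 2.55 to 2.59 in Control, 3.30 to 3.45 in Lenvatinib+anti-PD1 and 2.43 to 2.55 in Co+Len@OVA+anti-PD1.

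**Figure D2:**
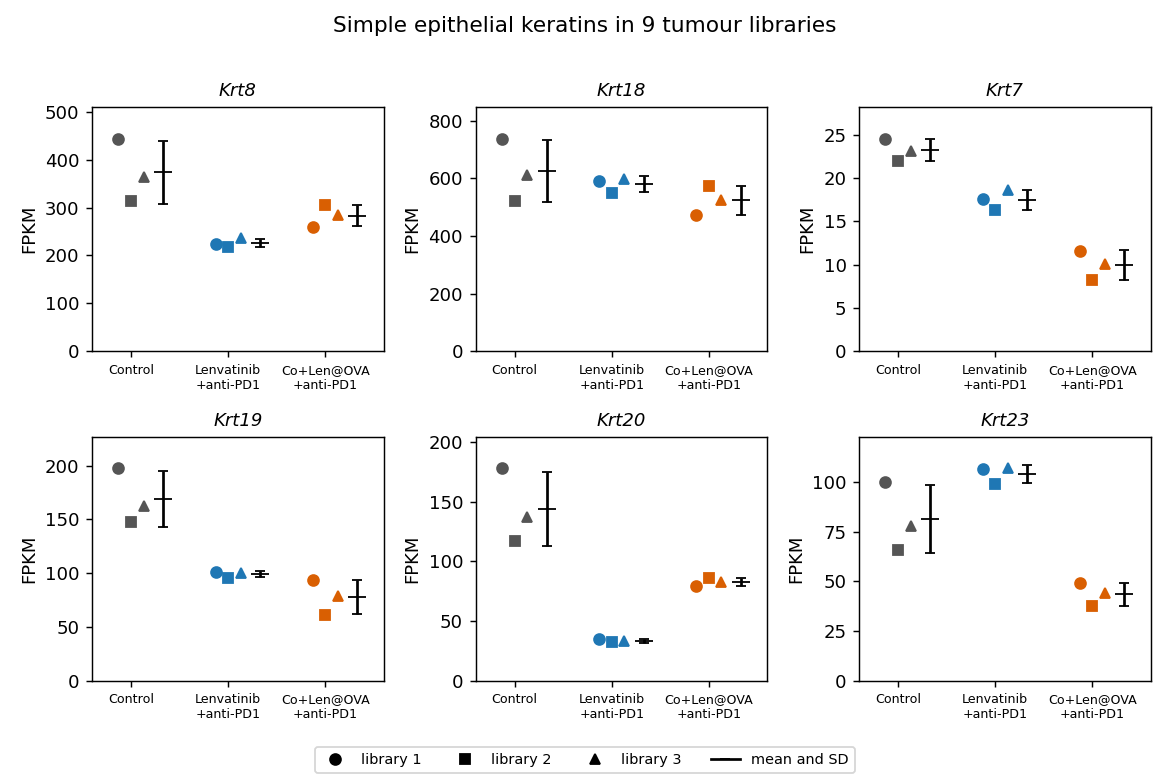
FPKM (vertical axes, from 0) of the 6 simple keratins in each library, grouped by treatment, with marker shapes for library number and a bar for the mean and SD of 3 libraries. Krt8, Krt7, Krt19 and Krt20 are highest in all 3 Control libraries, and Krt20 is lowest in Lenvatinib+anti-PD1 at 32.1 to 34.9 FPKM.

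Krt7, a type II keratin of bile ducts, was measured at 24.5, 22.0 and 23.1 FPKM in Control, 17.6, 16.3 and 18.6 in Lenvatinib+anti-PD1 and 11.6, 8.21 and 10.1 in Co+Len@OVA+anti-PD1. The groups formed 3 separate steps with no overlap. Krt7 fell by 1.19 ± 0.12 in Co+Len@OVA+anti-PD1 against Control (adjusted p = 0.000422, 0.0672 with libraries 1 and 2 alone). It fell by 0.79 ± 0.12 against Lenvatinib+anti-PD1 (adjusted p = 0.00209, 0.125). The step from Control to Lenvatinib+anti-PD1 was -0.40 ± 0.12 (adjusted p = 0.0413, 0.316), a call lost on leaving out any 1 library other than Co+Len@OVA+anti-PD1 library 1 or 2, with adjusted p from 0.0560 to 0.124.

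Krt19, a type I keratin of bile ducts and liver progenitors, stood at 197, 147 and 162 FPKM in Control, 101, 95.9 and 101 in Lenvatinib+anti-PD1 and 93.8, 61.4 and 78.4 in Co+Len@OVA+anti-PD1. Every Control library was above every treated library. Krt19 fell by 1.12 ± 0.16 in Co+Len@OVA+anti-PD1 (adjusted p = 0.00190, 0.108 with libraries 1 and 2 alone) and by 0.76 ± 0.16 in Lenvatinib+anti-PD1 (adjusted p = 0.0119, 0.233). The treatments differed by -0.37 ± 0.16 (adjusted p = 0.111), although their libraries did not overlap. That difference was -0.51 (adjusted p = 0.0472) without Co+Len@OVA+anti-PD1 library 1.

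Krt20, a type I keratin of gut and urothelial surfaces, was measured at 178, 117 and 137 FPKM in Control, 34.9, 32.1 and 33.3 in Lenvatinib+anti-PD1 and 79.8, 85.7 and 82.8 in Co+Len@OVA+anti-PD1. The 3 groups did not overlap, with Lenvatinib+anti-PD1 the lowest. Krt20 fell by 2.07 ± 0.13 in Lenvatinib+anti-PD1 (limma adjusted p = 7.81e-05, 0.0469 with libraries 1 and 2 alone) and by 0.77 ± 0.13 in Co+Len@OVA+anti-PD1 (adjusted p = 0.00437, 0.140). Between the treatments Krt20 was 1.30 ± 0.13 higher in Co+Len@OVA+anti-PD1 (adjusted p = 0.000362, 0.0574). The ratio of Krt20 to Krt19 was 0.79 to 0.90 in Control, 0.33 to 0.35 in Lenvatinib+anti-PD1 and 0.85 to 1.40 in Co+Len@OVA+anti-PD1, so these simple type I keratins did not keep 1 proportion.

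Gut markers did not share the order of Krt20. Vil1, the villin of gut and liver brush borders, was at 32.6, 40.5 and 38.1 FPKM in Control, 53.2, 48.6 and 52.2 in Lenvatinib+anti-PD1 and 28.8, 28.1 and 28.9 in Co+Len@OVA+anti-PD1, highest where Krt20 was lowest. Of 5 gut markers found, 3 were tested. In Lenvatinib+anti-PD1 against Control 2 rose, beside 13.8% of all tested genes called higher. In Co+Len@OVA+anti-PD1 2 fell against Control and 2 against Lenvatinib+anti-PD1, beside 12.7% and 12% of all tested genes called lower. The goblet cell mucin Muc2 was at most 0.0474 FPKM and the intestinal factor Cdx1 at most 0.0847.

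Krt23, a type I keratin described in injured liver, stood at 99.9, 65.9 and 78.0 FPKM in Control, 107, 98.6 and 107 in Lenvatinib+anti-PD1 and 48.9, 37.4 and 43.9 in Co+Len@OVA+anti-PD1. The last group lay below both other groups, which overlapped each other. Krt23 fell by 0.88 ± 0.15 against Control (adjusted p = 0.00437, 0.136 with libraries 1 and 2 alone) and by 1.26 ± 0.15 against Lenvatinib+anti-PD1 (adjusted p = 0.000819, 0.0773). For Lenvatinib+anti-PD1 against Control the difference was 0.37 ± 0.15 (adjusted p = 0.113), and 0.53 (adjusted p = 0.0150) without Control library 1.

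**Figure D3:**
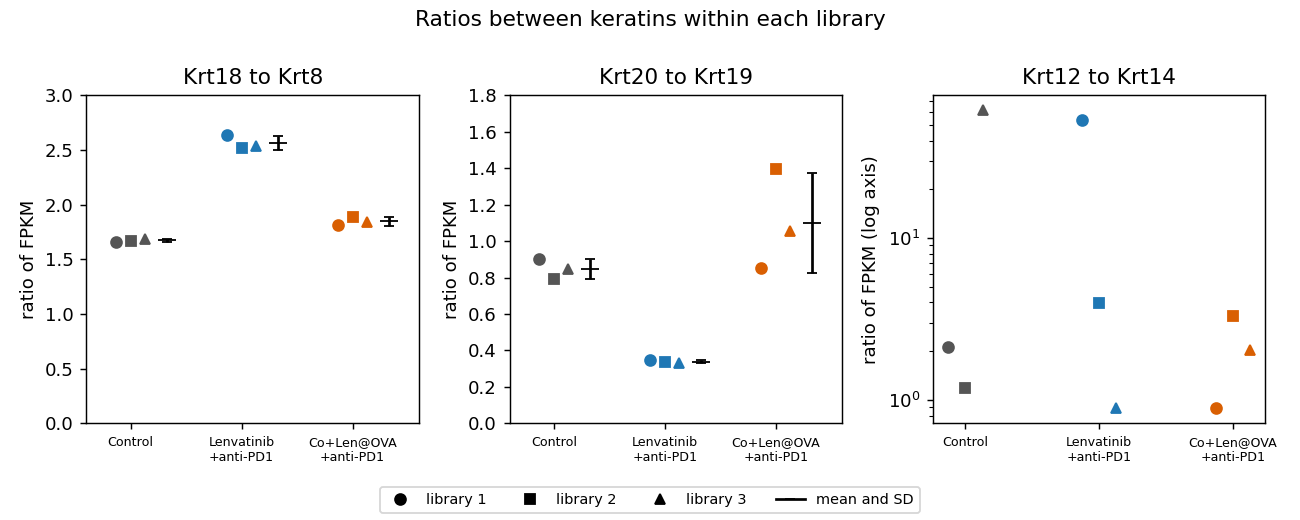
Ratios of FPKM between 2 keratins within each library (vertical axes, the third on a log axis), by treatment, with marker shapes for library number and, in the first and second panels, the mean and SD. The Krt18 to Krt8 ratio separates the 3 groups, and the Krt12 to Krt14 ratio spans 0.89 to 61.7 with no group apart.

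The keratins of stratified epithelia differed between libraries and not, past the test, between groups. Of the 10 such keratins with any library above 5 FPKM, limma called 0 in each comparison, with 0 at an unadjusted p under 0.05. Their SEs were between 1.04 and 1.81 on the log2 scale. Control library 2 held almost none of them, and their levels in the other libraries followed at least 2 patterns. The first pattern was led by Krt12 and Krt5 and the second by Krt14 and Krt16. Over these 10 keratins, the closest of the 36 library pairs, of which only 9 lie within a group, came from different groups. It was Control library 1 with Co+Len@OVA+anti-PD1 library 3, with a median absolute log2 difference of 0.07. Pairs within a group ranged from 0.19 to 5.06.

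Krt12, the keratin of the corneal surface epithelium, was listed at 44.9, 0.0548 and 147 FPKM in Control, 112, 179 and 32.7 in Lenvatinib+anti-PD1 and 34.6, 57.8 and 43.4 in Co+Len@OVA+anti-PD1. It was above 30 FPKM in 8 libraries and close to 0 in Control library 2. The fitted difference was 1.53 ± 1.81 (adjusted p = 0.532) for Co+Len@OVA+anti-PD1 and 2.5 ± 1.81 (adjusted p = 0.350) for Lenvatinib+anti-PD1 against Control. Without Control library 2 the first became -0.87 and the second 0.10.

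Krt5, the type II keratin of basal cells, had values of 59.8, 1.47 and 91.8 FPKM in Control, 65.9, 137 and 48.8 in Lenvatinib+anti-PD1 and 57.4, 71.5 and 61.6 in Co+Len@OVA+anti-PD1. Its libraries ranked much as for Krt12, with Lenvatinib+anti-PD1 library 2 and Control library 3 the highest and Control library 2 the lowest. Krt5 differed from Control by 1.52 ± 1.28 (adjusted p = 0.377) in Co+Len@OVA+anti-PD1, and by -0.23 without Control library 2.

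Krt14, its type I partner in skin, was measured at 21.2, 0.0465 and 2.38 FPKM in Control, 2.08, 45.2 and 36.6 in Lenvatinib+anti-PD1 and 39.1, 17.6 and 21.5 in Co+Len@OVA+anti-PD1. Control library 3, high in Krt12 and Krt5, and Lenvatinib+anti-PD1 library 1, high in Krt12 alone of these, were low in Krt14. The ratio of Krt12 to Krt14 was 61.7 and 53.8 in those 2 libraries and 0.89 to 3.96 in the other 7. Krt14 differed from Control by 2.95 ± 1.46 (adjusted p = 0.147) in Co+Len@OVA+anti-PD1. Without Control library 1, the 1 Control library with Krt14 above 3 FPKM, the difference was 4.32 (adjusted p = 0.0404). Without Control library 2 it was 1.66 and did not pass.

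Krt16, an activation keratin that pairs with Krt6, stood at 10.6, 0.0280 and 0.247 FPKM in Control, 0.130, 20 and 18.8 in Lenvatinib+anti-PD1 and 18.9, 8.21 and 9.96 in Co+Len@OVA+anti-PD1. Krt17, induced in wounded epithelium, was at 1.5, 0.220 and 0.0455 FPKM in Control, 0.0695, 6.15 and 5.48 in Lenvatinib+anti-PD1 and 8.30, 0.640 and 3.49 in Co+Len@OVA+anti-PD1. Krt4, the type II keratin of oral and oesophageal mucosa, was at 5.59, 0.0159 and 0.410 FPKM in Control, 0.392, 6.5 and 6.56 in Lenvatinib+anti-PD1 and 6.59, 5.92 and 5.24 in Co+Len@OVA+anti-PD1. All 3 were under 0.5 FPKM in Control libraries 2 and 3 and Lenvatinib+anti-PD1 library 1, the libraries that were also lowest in Krt14. Without Control library 1, Krt4 differed from Control by 3.22 in Co+Len@OVA+anti-PD1 (limma adjusted p = 0.0276). Without Control library 2 this difference was 1.44 and did not pass.

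Krt15, a basal type I keratin, was at 40.7, 0.0407 and 8.26 FPKM in Control, 6.05, 32.4 and 21.5 in Lenvatinib+anti-PD1 and 21.4, 33.9 and 36.7 in Co+Len@OVA+anti-PD1. Krt13, the mucosal partner of Krt4, was at 14.5, 0.0322 and 6.36 FPKM in Control, 5.17, 18.5 and 11.1 in Lenvatinib+anti-PD1 and 10.5, 14.4 and 14.4 in Co+Len@OVA+anti-PD1. Both were above 5 FPKM in every library except Control library 2, which lay outside the range of all others. For Krt15 the difference of Co+Len@OVA+anti-PD1 from Control was 2.39 ± 1.39 (adjusted p = 0.209), and 3.8 (adjusted p = 0.0423) without Control library 1. Without Control library 2 it was 0.675 and did not pass.

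Krt6a and Krt6b are adjacent, near-identical type II genes of activated epithelium, and how fragments were divided between them is not given in the sources used here. Krt6a was listed at 29.8, 0.331 and 18.0 FPKM in Control, 14.8, 54.9 and 33.7 in Lenvatinib+anti-PD1 and 38.0, 27.1 and 28.4 in Co+Len@OVA+anti-PD1. Krt6b was listed at 22.2, 0 and 15.3 FPKM in Control, 11.6, 38.5 and 21 in Lenvatinib+anti-PD1 and 22.8, 21.1 and 21.2 in Co+Len@OVA+anti-PD1. Each was present in 8 libraries and nearly absent from Control library 2. In both, the groups overlapped.

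**Figure D4:**
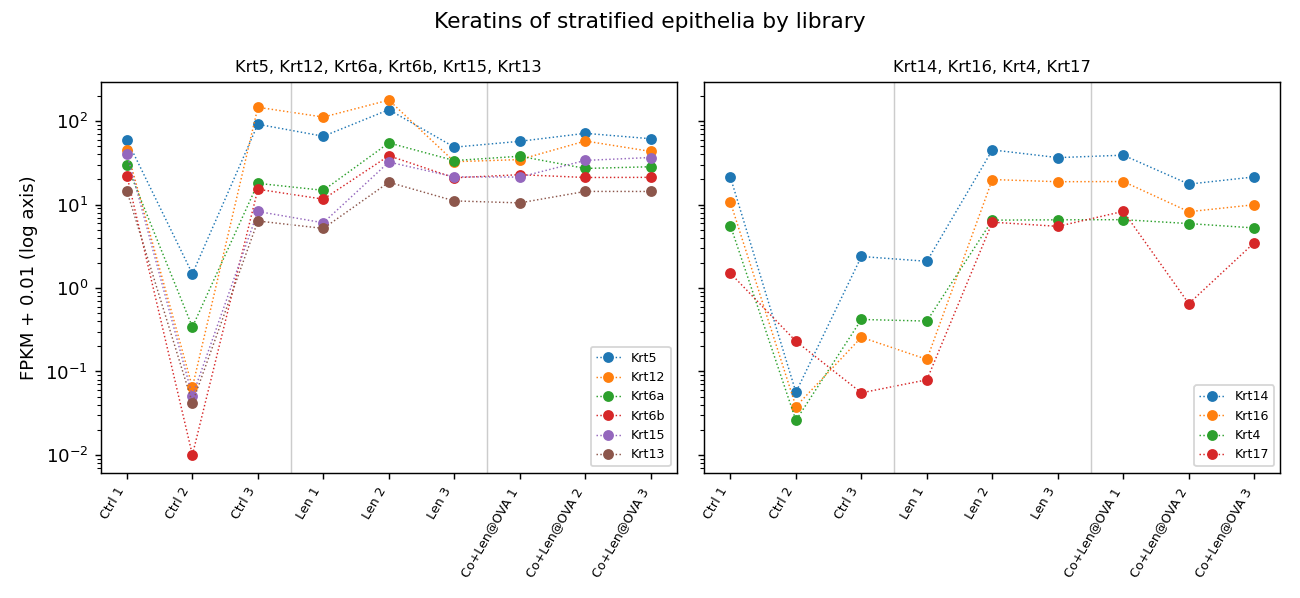
FPKM + 0.01 (vertical log axis) of 10 keratins of stratified epithelia in the 9 libraries (horizontal axis), in 2 panels, with dotted lines joining the values of 1 gene. Control library 2 is near the floor for most of them. Control library 3 and Lenvatinib+anti-PD1 library 1 are low in the right panel (Krt14, Krt16, Krt4, Krt17). In the left panel they rank just above Control library 2 for Krt6a, Krt6b, Krt15 and Krt13, and not for Krt12 and Krt5.

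Some marker genes of the tissues that use these keratins shared their low values in Control library 2 and others did not. Control library 2 lay more than 4-fold below the median of the other libraries for 4 of 5 tested corneal markers and 6 of 18 tested squamous markers. The share of all genes this low in that library was not counted. Col8a2, a corneal collagen, did not, at 0.416 FPKM there and 0.218 to 1.59 elsewhere. Among squamous genes, Ly6d was at 14.8 FPKM in that library, Itgb4 at 14.2 and Dmkn at 5.73, within their ranges in the others. Aldh3a1, a crystallin-like enzyme of corneal epithelium, was at 23.6, 4.19 and 83.7 FPKM in Control, 68.4, 90.3 and 9.82 in Lenvatinib+anti-PD1 and 10.4, 39.9 and 21 in Co+Len@OVA+anti-PD1, so the 3 libraries highest in Krt12 were also highest in Aldh3a1. The 6 corneal markers summed to 4.66 to 92.7 FPKM in Control, 13.7 to 104 in Lenvatinib+anti-PD1 and 14.4 to 46.7 in Co+Len@OVA+anti-PD1, and limma called 0 of the 5 tested in each comparison, with 0 at an unadjusted p under 0.05. Pax6, the master regulator of the eye, was at 0.163, 0 and 0.465 FPKM in Control, 0.342, 0.697 and 0.148 in Lenvatinib+anti-PD1 and 0.195, 0.222 and 0.203 in Co+Len@OVA+anti-PD1. These values are low, and the 3 libraries highest in Krt12 were also highest in Pax6. The 6 lens and retina markers found were each under 1 FPKM in every library, with sums of 0.167 to 0.686 FPKM. The part of corneal or other squamous tissue in these keratin levels was not tested.

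Among 30 genes of squamous and cornifying epithelium found in the table, 18 were tested. In Co+Len@OVA+anti-PD1 against Control, 4 rose and 1 fell, in Lenvatinib+anti-PD1 against Control 5 rose and 1 fell, and between the treatments 1 rose and 3 fell. That is 5, 6 and 4 of 18, beside 33.6%, 23.7% and 29.4% of all tested genes called. Sprr1a, a cornified envelope precursor also known from injured tissue, rose by 1.35 ± 0.19 in Co+Len@OVA+anti-PD1 (adjusted p = 0.00183) and by 1.18 ± 0.19 in Lenvatinib+anti-PD1 (adjusted p = 0.00394). It stood at 14.0, 11.7 and 13.5 FPKM in Control, 28.8, 30.4 and 31.8 in Lenvatinib+anti-PD1 and 25.2, 45.9 and 34.1 in Co+Len@OVA+anti-PD1, with no dip in Control library 2. Calml3, a squamous calmodulin-like protein, was at 11.4, 0.245 and 23.0 FPKM in Control, 18.5, 30.1 and 7.69 in Lenvatinib+anti-PD1 and 7.45, 15.7 and 12.5 in Co+Len@OVA+anti-PD1, low where Krt12 was low. Trp63, the basal cell transcription factor, was under 1 FPKM in all 9 libraries, at 0.0108 in Control library 2 and 0.200 to 0.777 in the others. Lor, a late cornified envelope protein, was at most 0.356 FPKM, and filaggrin (Flg) at most 0.00609.

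**Figure D5:**
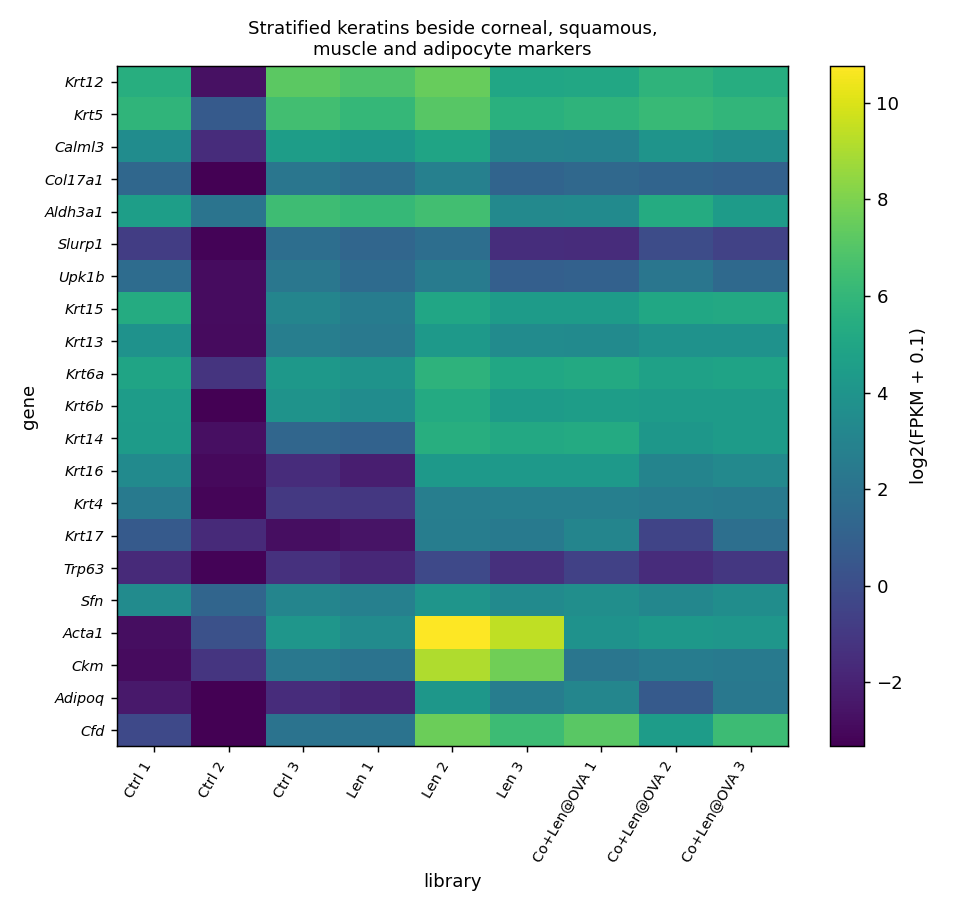
Heat map of log2(FPKM + 0.1) (colour scale) for 21 genes (rows) in the 9 libraries (columns): keratins of stratified epithelia beside corneal, squamous, muscle and adipocyte markers. Krt12, Krt5, Calml3 and Aldh3a1 share their low values in Control library 2, and the muscle gene Acta1 is highest in Lenvatinib+anti-PD1 library 2.

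Skeletal muscle, adipocyte and mesothelial markers also differed by library. The 8 skeletal muscle markers summed to 1.21 to 44.0 FPKM in Control, 32.7 to 4667 in Lenvatinib+anti-PD1 and 38.5 to 48.0 in Co+Len@OVA+anti-PD1. In Lenvatinib+anti-PD1 against Control 7 of the 8 rose, beside 13.8% of all tested genes called higher. With libraries 1 and 2 alone 0 rose, and 6 had an unadjusted limma p under 0.05, as did 2560 of all 15353 genes tested. Acta1, skeletal actin, was at 0.0410, 1.03 and 17.1 FPKM in Control, 10.9, 1740 and 697 in Lenvatinib+anti-PD1 and 14.4, 17.9 and 16.9 in Co+Len@OVA+anti-PD1, so its highest values were in libraries 2 and 3 of Lenvatinib+anti-PD1. Library 2 was also the highest for Krt12 and Krt5, while library 3 was the lowest for both apart from Control library 2. The 9 adipocyte markers summed to 7.12 to 16.5 FPKM in Control, 47.1 to 605 in Lenvatinib+anti-PD1 and 43.5 to 242 in Co+Len@OVA+anti-PD1, and 2 of 8 tested rose in each treated group against Control, beside 20.9% (Co+Len@OVA+anti-PD1) and 13.8% (Lenvatinib+anti-PD1) of all genes. With libraries 1 and 2 alone limma called 0 adipocyte markers in each, and 2 in each had an unadjusted p under 0.05. Of all 15353 genes tested, 3382 (Co+Len@OVA+anti-PD1) and 2560 (Lenvatinib+anti-PD1) had such a p. The 8 mesothelial markers, from the liver's covering layer, summed to 1.35 to 2.15 FPKM in Control, 0.982 to 6.73 in Lenvatinib+anti-PD1 and 3.20 to 22.2 in Co+Len@OVA+anti-PD1. Their part in the keratin levels was not tested.

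The remaining 5 tested keratins were low. Krt39, a hair-type keratin whose gene lies beside Krt23, was at 0.775, 0.798 and 1.04 FPKM in Control, 3.25, 2.66 and 3.29 in Lenvatinib+anti-PD1 and 1.59, 0.712 and 0.989 in Co+Len@OVA+anti-PD1. Lenvatinib+anti-PD1 lay above both other groups without overlap. Krt39 rose by 1.38 ± 0.20 against Control (adjusted p = 0.00269) and was -1.19 ± 0.20 in Co+Len@OVA+anti-PD1 against Lenvatinib+anti-PD1 (adjusted p = 0.00390), and neither call held with libraries 1 and 2 alone (0.149 and 0.158). Krt80, a widely expressed type II keratin, was at 1.07, 1.09 and 1.37 FPKM in Control, 0.847, 1.70 and 0.893 in Lenvatinib+anti-PD1 and 1.78, 1.89 and 1.92 in Co+Len@OVA+anti-PD1. The last group was highest without overlap. It differed from Control by 0.50 ± 0.19 (limma adjusted p = 0.0765, and 0.0195 without Lenvatinib+anti-PD1 library 2).

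Krt76, a palate keratin, was at 1.03, 0.779 and 1.32 FPKM in Control, 1.48, 1.64 and 1.36 in Lenvatinib+anti-PD1 and 0.460, 1.66 and 1.5 in Co+Len@OVA+anti-PD1. Krt10, the suprabasal keratin of epidermis, was at 0.405, 0.523 and 0.385 FPKM in Control, 0.793, 0.887 and 0.535 in Lenvatinib+anti-PD1 and 0.505, 0.435 and 0.562 in Co+Len@OVA+anti-PD1. Krt33b, a hair keratin, was at 1.89, 0.309 and 0.504 FPKM in Control, 0.332, 0.250 and 0.265 in Lenvatinib+anti-PD1 and 0.419, 1.16 and 1.03 in Co+Len@OVA+anti-PD1. None of these 3 passed in a comparison of all 9 libraries. The 21 keratins not tested, which include Krt1 and Krt2 of the outer epidermis and most hair and root-sheath keratins, stayed at or below 0.624 FPKM in every library, and 20 of them were under 0.5 FPKM throughout.

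The groups of a comparison did not overlap for 6 keratins in Co+Len@OVA+anti-PD1 against Control, 1 higher and 5 lower, where 49.7% of all tested genes did not overlap, 32.4% higher and 17.3% lower. For Lenvatinib+anti-PD1 against Control the counts were 3 higher and 4 lower, beside 43.5% of all genes, 26.1% higher and 17.4% lower. Between the treatments they were 4 higher and 4 lower, beside 54.8%, 34.3% higher and 20.4% lower.

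Genes that share a cell type or a structure with the keratins are given from lists of known members, whose counts are to be read beside the shares of all genes above. Of the 13 biliary and progenitor markers found, 10 were tested, and 3 fell in Co+Len@OVA+anti-PD1 against Control, 1 in Lenvatinib+anti-PD1 and 4 between the treatments, with no rise. Sox9, the duct and progenitor transcription factor, was at 62.4, 38.1 and 46.2 FPKM in Control, 33.1, 31.7 and 31.8 in Lenvatinib+anti-PD1 and 22.1, 18.2 and 21.5 in Co+Len@OVA+anti-PD1. It fell by 1.20 ± 0.16 in Co+Len@OVA+anti-PD1 (adjusted p = 0.00161) and by 0.57 ± 0.16 in Lenvatinib+anti-PD1 (adjusted p = 0.0381), in the same group order as Krt7 and Krt19. Epcam, a surface protein of ducts and progenitors, fell by 0.94 ± 0.10 in Co+Len@OVA+anti-PD1 (adjusted p = 0.000638). The duct chloride channel Cftr was at most 0.0535 FPKM and the secretin receptor Sctr at most 0.249.

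Most hepatocyte genes fell in Co+Len@OVA+anti-PD1. Of 16 tested, 15 fell in Co+Len@OVA+anti-PD1 against Control, with a list median of -2.08, and 15 fell against Lenvatinib+anti-PD1, with a median of -3.70. Of all tested genes, 12.7% and 12% were called lower in these comparisons. Hnf4a was the gene that did not pass (adjusted p = 0.548 and 0.766). In Lenvatinib+anti-PD1 against Control 3 rose and 1 fell, beside 13.8% of all tested genes called higher and 9.87% lower. With libraries 1 and 2 alone, 4, 7 and 3 of the 16 were called in these comparisons in that order. Of all tested genes, 0.521%, 2.38% and 0.345% were called in that fit. Mup20, a major urinary protein, was at 44.7, 44.3 and 51.9 FPKM in Control, 339, 286 and 321 in Lenvatinib+anti-PD1 and 5.78, 7.35 and 5.35 in Co+Len@OVA+anti-PD1.

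Desmosomes and plakins anchor keratin filaments at the membrane. Of 17 tested members, 2 rose and 5 fell in Co+Len@OVA+anti-PD1 against Control, 3 rose and 1 fell in Lenvatinib+anti-PD1, and 5 fell between the treatments. These 7, 4 and 5 of 17 stand beside the same 33.6%, 23.7% and 29.4% of all tested genes. Ppl, periplakin, stood at 16.7, 18.2 and 19.4 FPKM in Control, 5.57, 8.06 and 5.43 in Lenvatinib+anti-PD1 and 6.32, 6.85 and 6.76 in Co+Len@OVA+anti-PD1. It fell by 1.46 ± 0.14 in Lenvatinib+anti-PD1 (adjusted p = 0.000421) and by 1.38 ± 0.14 in Co+Len@OVA+anti-PD1 (adjusted p = 0.000441). Desmoplakin (Dsp) fell by 0.58 ± 0.13 in Co+Len@OVA+anti-PD1 (adjusted p = 0.0113) and desmoglein 2 (Dsg2) by 0.62 ± 0.09 (adjusted p = 0.00206), while neither passed in Lenvatinib+anti-PD1 (0.497 and 0.991).

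Of 12 other intermediate filament genes tested, 4 rose in Co+Len@OVA+anti-PD1 against Control, 2 rose and 1 fell in Lenvatinib+anti-PD1, and 3 rose and 1 fell between the treatments. These counts, and those of the transition genes below, stand beside 33.6%, 23.7% and 29.4% of all tested genes called. Vimentin (Vim), the mesenchymal and leukocyte filament, was at 281, 301 and 297 FPKM in Control, 204, 223 and 214 in Lenvatinib+anti-PD1 and 347, 312 and 324 in Co+Len@OVA+anti-PD1. The groups did not overlap, and Vim fell by 0.46 ± 0.07 in Lenvatinib+anti-PD1 (adjusted p = 0.00269) and differed by 0.16 ± 0.07 (adjusted p = 0.0922) in Co+Len@OVA+anti-PD1. Lamin B1 (Lmnb1), a nuclear filament, rose by 0.72 ± 0.10 in both (adjusted p = 0.00209 and 0.00271). Of 9 epithelial and mesenchymal transition genes tested, 1 rose and 3 fell in Co+Len@OVA+anti-PD1 against Control, 1 fell in Lenvatinib+anti-PD1, and 1 rose and 3 fell between the treatments. Esrp2, an epithelial splicing factor, was at 7.67, 8.58 and 8.93 FPKM in Control, 9.50, 8.96 and 10.2 in Lenvatinib+anti-PD1 and 4.54, 4.90 and 4.47 in Co+Len@OVA+anti-PD1. Esrp2 fell by 0.79 ± 0.08 against Control (adjusted p = 0.000466) and by 0.97 ± 0.08 against Lenvatinib+anti-PD1 (adjusted p = 0.000118, 0.0366 with libraries 1 and 2 alone).

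Of 8 genes of keratin stress and Mallory-Denk bodies, the keratin inclusions of injured hepatocytes, 3 rose and 1 fell in Co+Len@OVA+anti-PD1 and 1 fell in Lenvatinib+anti-PD1 against Control. Of all tested genes, 33.6% and 23.7% were called in these comparisons. The transglutaminase Tgm2, which crosslinks Krt8, rose by 0.80 ± 0.16 (adjusted p = 0.0088) and the chaperone Hspa1a by 2.12 ± 0.32 (adjusted p = 0.00251) in Co+Len@OVA+anti-PD1, while Sqstm1, the p62 protein of the inclusions, fell by 0.21 ± 0.06 (adjusted p = 0.0368). With libraries 1 and 2 alone, limma called 0 of the 65 genes tested in the squamous, biliary, desmosome, filament and stress lists in each comparison. An unadjusted limma p under 0.05 was found for 17 (nanocluster against Control), 16 (free drug against Control) and 17 (between the treatments) of them. Of all 15353 genes tested, 3382, 2560 and 2864 had such a p in these comparisons in that order.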

How the data were processed

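Total tumour RNA was enriched for poly(A) transcripts, turned into dUTP strand-specific libraries and read as pairs of 150 bases, per the labels' protocols. Tools named in the submitters' processing notes are fastp, StringTie and edgeR, with no version. No source used here gives an aligner, a build or an annotation. The values the authors deposited are FPKM, although the table is titled as raw counts, so a count test was not run. limma 3.58.1 in R 4.3.3, with a mean-variance trend and robust empirical Bayes, was fitted to log2(FPKM + 0.5) in all 9 libraries (6 residual degrees of freedom, 3 with libraries 1 and 2 alone). This scale understates the change of low genes. Tests covered the 15353 genes whose mean reached 0.5 FPKM, with Benjamini-Hochberg adjustment at 0.05. The fit was tested on simulated data. Keratins with a mean past that filter or 1 FPKM in any library are named, and of each marker list up to 4 members. Apart from these, Calml3, Pax6, Trp63, Lor, Flg, Hnf4a, Vim, Cftr, Sctr and Muc2 were chosen after their values were seen. So were Cdx1, Col8a2, Ly6d, Itgb4, Dmkn, Gpc3, H19, Igf2 and Dlk1. The members and lists were chosen with earlier results of these data known. All 42 keratins matched the RefSeq gene table and 26 the promoter table. Without a depth, no counting interval can be given.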

Additional observations from a re-analysis of the deposited data

How the results depend on the processing

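Each of the 63 keratin results was recomputed under 19 alternatives, and no called keratin changed direction. With libraries 1 and 2 alone, 0 keratins passed in Co+Len@OVA+anti-PD1 against Control, 1 in Lenvatinib+anti-PD1 against Control and 0 between the treatments, against 5, 5 and 4 with all libraries. This fit has fewer libraries and residual degrees of freedom. Leaving out 1 library at a time gave 4 to 7, 4 to 5 and 4 to 6 calls in these comparisons. Without the filter on low values the counts were 6, 4 and 6. Krt8 in Co+Len@OVA+anti-PD1 against Control was lost there (adjusted p = 0.0780), with only the compared groups (0.10) and with the plain variance model (0.0524), and Krt7 in Lenvatinib+anti-PD1 against Control was lost without the filter (0.0827) and with the plain variance model (0.0528). Median-of-ratios scaling moved the median of all genes in Co+Len@OVA+anti-PD1 against Control from 0.13 to 0.00 and turned 3209 higher and 1946 lower calls into 2060 and 2817, while the keratin counts stayed at 5, 5 and 4. Same-numbered libraries did not deviate together (correlations of -0.25 to 0.08), and a replicate block gave 4, 5 and 4 calls, without Krt8 in Co+Len@OVA+anti-PD1 against Control (0.0840). Other pseudocounts left the counts at 5, 5 and 4. The number of libraries, and the doubt about those numbered 3, limit every keratin call. With values in FPKM alone, sequencing depth could not be used to weigh low keratins.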

Other observations

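The keratins of stratified epithelia and the simple keratins ordered the same 9 libraries differently, a comparison chosen after the values were seen. For each of the 36 pairs of libraries, the median absolute difference on the log2(FPKM + 0.5) scale was taken over 10 stratified keratins and over the 6 simple keratins. In the stratified set, Control library 1 and Co+Len@OVA+anti-PD1 library 3 differed by a median of 0.07 and by at most 1.00 (Krt17). Lenvatinib+anti-PD1 library 3 and Co+Len@OVA+anti-PD1 library 1 differed by a median of 0.09 and by at most 0.56 (Krt17). Control library 3 and Lenvatinib+anti-PD1 library 1 differed by a median of 0.27 and by at most 0.48 (Krt5). In these pairs Krt14 stood at 21.2 and 21.5, 36.6 and 39.1, and 2.38 and 2.08 FPKM, and Krt13 at 14.5 and 14.4, 11.1 and 10.5, and 6.36 and 5.17 FPKM.

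The simple keratins of the same 3 pairs were further apart, with medians of 1.14, 0.50 and 0.57, while pairs within a group had medians of 0.04 to 0.50 over the simple keratins. Each of these 3 pairs joins libraries of different treatment groups, and they ranked 1, 2 and 5 of the 36. Only 9 of the 36 pairs lie within a group. Rank 3 was a pair within a group, Co+Len@OVA+anti-PD1 libraries 2 and 3, with a median of 0.19, and rank 4 was Control library 1 with Co+Len@OVA+anti-PD1 library 2, with 0.26. The keratins of stratified epithelia share libraries, and Krt14, Krt16 and Krt17 are similar sequences, so the 10 genes are not independent. Why these libraries were alike was not tested.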
